A study of Homo sapiens with 8 samples.

Results

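The genes described are 46 ribosome biogenesis factors, the proteins that transcribe, modify, cut and fold ribosomal RNA (rRNA) in the nucleolus and assemble the ribosomal subunits. They were taken as a fixed list of gene symbols, and each was read from the brightest of its probe sets annotated to exactly 1 symbol, over all 8 arrays. All 46 were found among the 19774 genes with such a probe set, and all 46 reached the level filter that left 14517 genes for testing. The list was drawn up with earlier results of these data known, so its shares against all genes are a description and not independent of the response.

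The study profiled human neuroblastoma cell lines on Affymetrix expression arrays after 48 h with 2.5 µM ciclopirox, an antifungal hydroxypyridone that chelates iron, or after 48 h with vehicle. Its title names Myc signalling and the histone demethylase JMJD2B. The lines were NB1691, SK-N-BE(2), SK-N-AS/shHIF1A and SK-N-AS, with 1 array per line and treatment, so that no line has a repeated array and every error below is a spread between lines or arrays. SK-N-AS/shHIF1A is a stable HIF1A knockdown made from SK-N-AS, and whether it is a clone or a pool is not given in the sources used here. By the labels SK-N-AS is c-Myc, and the other 3 are N-Myc.

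The median signal of an array was 3.47 to 3.52 in log2 units. MYC had log2 levels under ciclopirox of 3.28 for NB1691, 3.28 for SK-N-BE(2), 9.23 for SK-N-AS/shHIF1A and 9.10 for SK-N-AS, against 2.70 for NB1691, 2.66 for SK-N-BE(2), 9.86 for SK-N-AS/shHIF1A and 10.16 for SK-N-AS under vehicle. MYCN had log2 levels under ciclopirox of 11.77 for NB1691, 12.53 for SK-N-BE(2), 5.65 for SK-N-AS/shHIF1A and 3.36 for SK-N-AS, against 12.05 for NB1691, 12.48 for SK-N-BE(2), 5.41 for SK-N-AS/shHIF1A and 2.77 for SK-N-AS under vehicle. MYCN was high in NB1691 and SK-N-BE(2), and MYC in the pair of SK-N-AS-derived lines, without overlap. MYCN was higher in SK-N-AS/shHIF1A than in SK-N-AS by 2.47 ± 0.24 (SE, 2 arrays per line, adjusted p = 0.00928 in limma), in the direction of its N-Myc label. Its MYCN level still lay far below those of NB1691 and SK-N-BE(2) and its MYC level near that of SK-N-AS, so lines are grouped below by origin, with the pair derived from SK-N-AS on 1 side. HIF1A had log2 levels under ciclopirox of 12.12 for NB1691, 11.88 for SK-N-BE(2), 11.09 for SK-N-AS/shHIF1A and 11.94 for SK-N-AS, against 12.05 for NB1691, 12.01 for SK-N-BE(2), 11.71 for SK-N-AS/shHIF1A and 12.25 for SK-N-AS under vehicle. The knockdown line was the lowest under both treatments. The difference was -0.69 ± 0.21 in the knockdown line relative to its parent (SE, 2 arrays per line), which did not pass the test over all genes (adjusted p = 0.257 in limma). Of 10 sympathetic neuroblastoma markers 8 were on the array with a single symbol, and all 8 reached the filter, which is on the mean over the 8 arrays. In limma all 8 were higher in NB1691 and SK-N-BE(2) than in the SK-N-AS-derived lines at an adjusted p under 0.05 (23% of all genes). The median difference was 2.88, and TH lay between 3.15 and 3.59 in the SK-N-AS-derived lines. The mean level of these 8 markers per array was 6.30 to 9.86 under ciclopirox and 7.28 to 10.28 under vehicle. Of 6 lymphoid and myeloid markers (mean level 3.33 to 4.58 under ciclopirox and 3.59 to 4.56 under vehicle) 3 reached the filter, of 5 epithelial markers 4 and of 4 endothelial markers 2. PTPRC, a leukocyte gene, had 6.34 to 11.53 and KRT18, an epithelial keratin gene, had 6.69 to 10.87 in the SK-N-AS-derived lines, while the 3 Schwann and glial markers present stayed below the filter.

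Ribosomes are built in steps. RNA polymerase I (Pol I) transcribes a long precursor in the nucleolus, box C/D and box H/ACA ribonucleoproteins use small nucleolar RNAs to place methyl groups and pseudouridines on it, a large processome cuts out the small subunit RNA, and other factors mature the large subunit. Many of these genes are known as targets of MYC proteins, which drive ribosome production in growing tumour cells, and amplified MYCN is a textbook feature of aggressive neuroblastoma.

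MYC proteins bind the E-box CACGTG, which reads the same on both strands and contains ACGTG, a core also read by hypoxia-inducible factors. Promoter windows from RefSeq on GRCh38.p14, each from 250 bases before to 50 after an annotated start, were on hand for 39 of the 46 genes. CACGTG stood in a window of 18 of the 39 (46.2%), against 8.77% of 27305 genes with a window and 10.9% of the 15399 genes of the array among them. ACGTG in either orientation stood in 59.0% of the members and 28.9% of the genes of the array. Every gene with CACGTG is counted here again, 18 of the 23 members with ACGTG and 1673 of the 4456 genes of the array. The share for ACGTG is therefore not a separate result, and ACGTG outside CACGTG was not compared. By stage, CACGTG was found in 0 of 3 Pol I genes, 3 of 5 nucleolar coordinators, 2 of 3 box C/D genes, 2 of 4 box H/ACA genes, 8 of 17 small subunit genes and 3 of 7 large subunit genes. Of 20 matches in members, 17 began within 40 bases of the start site (85.0%), against 765 of 2801 matches in the windows of other genes (27.3%). That distance was chosen after the positions were seen.

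**Figure D1:**
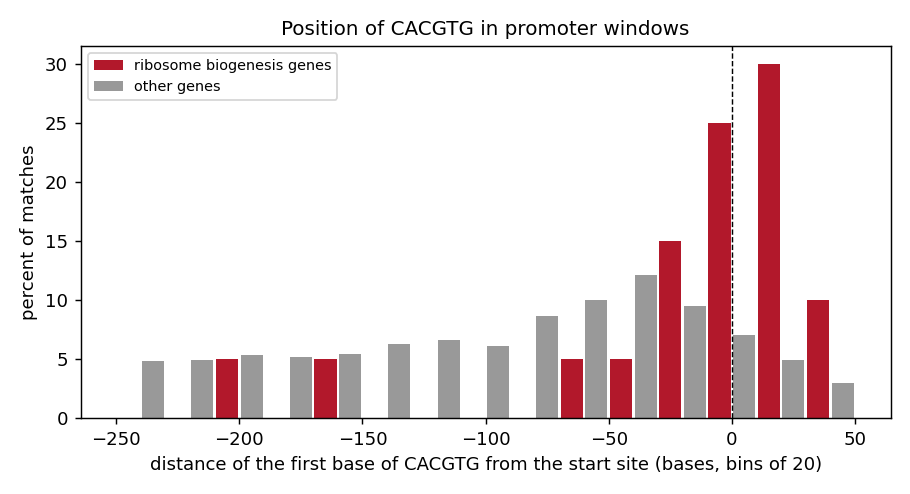
Distance of the first base of CACGTG from the annotated start site, in bases, in bins of 20, for 20 matches in windows of ribosome biogenesis genes (red) and 2801 in windows of other genes (grey), as percent of the matches of each set. The red bars stand close to the start site, with 17 of 20 matches within 40 bases of it, and the grey bars spread over the whole window.

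The windows of 4 genes show these cases, written 5′ to 3′ on the gene's own strand with CACGTG in capitals. UTP20 and MRTO4 had the motif and were lower under ciclopirox in every line, FBL had it with a mean change near 0 (lower in SK-N-AS/shHIF1A alone), and NOP56 had no match in its window and was lower in every line.

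UTP20 (chr12:101279855-101280154, plus strand): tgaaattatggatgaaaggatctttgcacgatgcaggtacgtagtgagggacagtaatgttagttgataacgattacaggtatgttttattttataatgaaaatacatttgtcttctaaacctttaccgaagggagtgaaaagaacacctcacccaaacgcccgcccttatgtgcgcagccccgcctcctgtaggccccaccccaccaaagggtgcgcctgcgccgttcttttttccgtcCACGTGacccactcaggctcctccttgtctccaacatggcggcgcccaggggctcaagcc

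MRTO4 (chr1:19251555-19251854, plus strand): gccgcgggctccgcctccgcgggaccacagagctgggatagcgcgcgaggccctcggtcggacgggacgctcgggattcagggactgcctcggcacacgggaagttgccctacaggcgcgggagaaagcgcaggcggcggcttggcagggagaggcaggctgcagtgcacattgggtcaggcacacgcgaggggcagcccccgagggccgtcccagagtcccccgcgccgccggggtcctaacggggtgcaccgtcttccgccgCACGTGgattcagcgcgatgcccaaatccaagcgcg

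FBL (chr19:39846330-39846629, minus strand): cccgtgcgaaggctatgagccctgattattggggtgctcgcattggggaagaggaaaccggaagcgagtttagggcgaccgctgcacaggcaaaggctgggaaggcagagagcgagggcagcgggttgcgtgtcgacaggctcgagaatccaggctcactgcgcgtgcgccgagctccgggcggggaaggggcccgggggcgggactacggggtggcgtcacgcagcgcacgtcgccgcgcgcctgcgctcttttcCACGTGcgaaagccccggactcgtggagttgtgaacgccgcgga

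NOP56 (chr20:2652382-2652681, plus strand): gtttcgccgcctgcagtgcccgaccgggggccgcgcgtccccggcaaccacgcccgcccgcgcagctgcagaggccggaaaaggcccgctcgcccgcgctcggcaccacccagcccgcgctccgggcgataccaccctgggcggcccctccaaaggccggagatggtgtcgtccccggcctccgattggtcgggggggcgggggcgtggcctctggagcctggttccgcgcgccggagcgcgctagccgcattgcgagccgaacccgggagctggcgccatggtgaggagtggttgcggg

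Change was also set beside the motif. The 18 members with CACGTG had a median change of -0.17, with 5 lower at an unadjusted p under 0.05, and the 21 without it had a median of -0.33, with 6 lower at that threshold. No test was made of that split. A missing match says only that these letters are not in the window.

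The main comparison asked how the factors differed between ciclopirox and vehicle across the 4 lines. Their levels were mostly lower under the drug, by modest amounts: the median change was -0.28 on the log2 scale, against -0.01 over all genes tested, and single members ranged from -0.82 for UTP20 to 0.53 for NOB1. The mean change was below 0 for 42 of 46 (91.3%), against 52.2% of all genes tested. In all 4 lines 20 members were lower (43.5%, against 16% of all genes) and 1 was higher (2.17%, against 11.8%). At an unadjusted p under 0.05 in limma, with cell line as a block, 14 members were lower (30.4%, against 10.2% of all genes) and 1 was higher (2.17%, against 7.67%).

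Markers of cell types were read on the same arrays. All 8 neuroblastoma markers had a mean change below 0, with a median of -0.47, further from 0 than that of the members, and by line -0.63 for NB1691, 0.05 for SK-N-BE(2), -0.99 for SK-N-AS/shHIF1A and -0.49 for SK-N-AS. Of these 8, 3 were lower at an unadjusted p under 0.05 in limma. The leukocyte gene PTPRC had changes of -0.09 for NB1691, 0.06 for SK-N-BE(2), -3.23 for SK-N-AS/shHIF1A and -1.11 for SK-N-AS, CD68, a macrophage marker, had 1.06 for NB1691, -0.16 for SK-N-BE(2), 1.23 for SK-N-AS/shHIF1A and 1.04 for SK-N-AS, and CORO1A, a leukocyte actin regulator gene, had -0.94 for NB1691, -0.85 for SK-N-BE(2), -0.90 for SK-N-AS/shHIF1A and -0.02 for SK-N-AS. KRT18 had -0.31 for NB1691, 0.05 for SK-N-BE(2), 0.52 for SK-N-AS/shHIF1A and 0.53 for SK-N-AS. All 4 epithelial markers at the filter ranged from -0.67 to 0.38 for NB1691 and -0.20 to 0.32 for SK-N-BE(2). They ranged from -0.22 to 0.52 for SK-N-AS/shHIF1A and -0.09 to 1.26 for SK-N-AS, and 2 had a mean change below 0. The 2 endothelial markers had 0.14 to 1.21 for NB1691, -0.48 to -0.24 for SK-N-BE(2), -0.26 to 1.48 for SK-N-AS/shHIF1A and 0.32 to 0.71 for SK-N-AS. The part of these markers in the members' changes was not tested.

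No single member passed the test over all genes. At an adjusted p under 0.05, 0 of 46 members and 0% of the 14517 genes were called in limma, the smallest adjusted p among members being 0.149 for NOP56 and the smallest of any gene 0.121. The 4 lines have 3 origins, since the knockdown line was made from SK-N-AS. With that pair averaged into 1 line, 8 of the 14 kept an unadjusted p under 0.05 in limma, and 6 did not. These were GAR1, WDR43, WDR3, IMP4, RRP1B and NIP7, with unadjusted p of 0.0664 for WDR3 to 0.145 for RRP1B in limma. The count of 14 was 7 without SK-N-AS and 3 when line was not used as a block. Without each of the other lines it was 10 to 15, and POLR1A, NOP56, UTP20, NOP16, RRS1 and MRTO4 kept an unadjusted p under 0.05 in limma without any 1 line. Shares of all genes under these alternatives are not given here. In these bulk samples fewer cells with a transcript and less transcript per cell cannot be told apart.

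**Figure D2:**
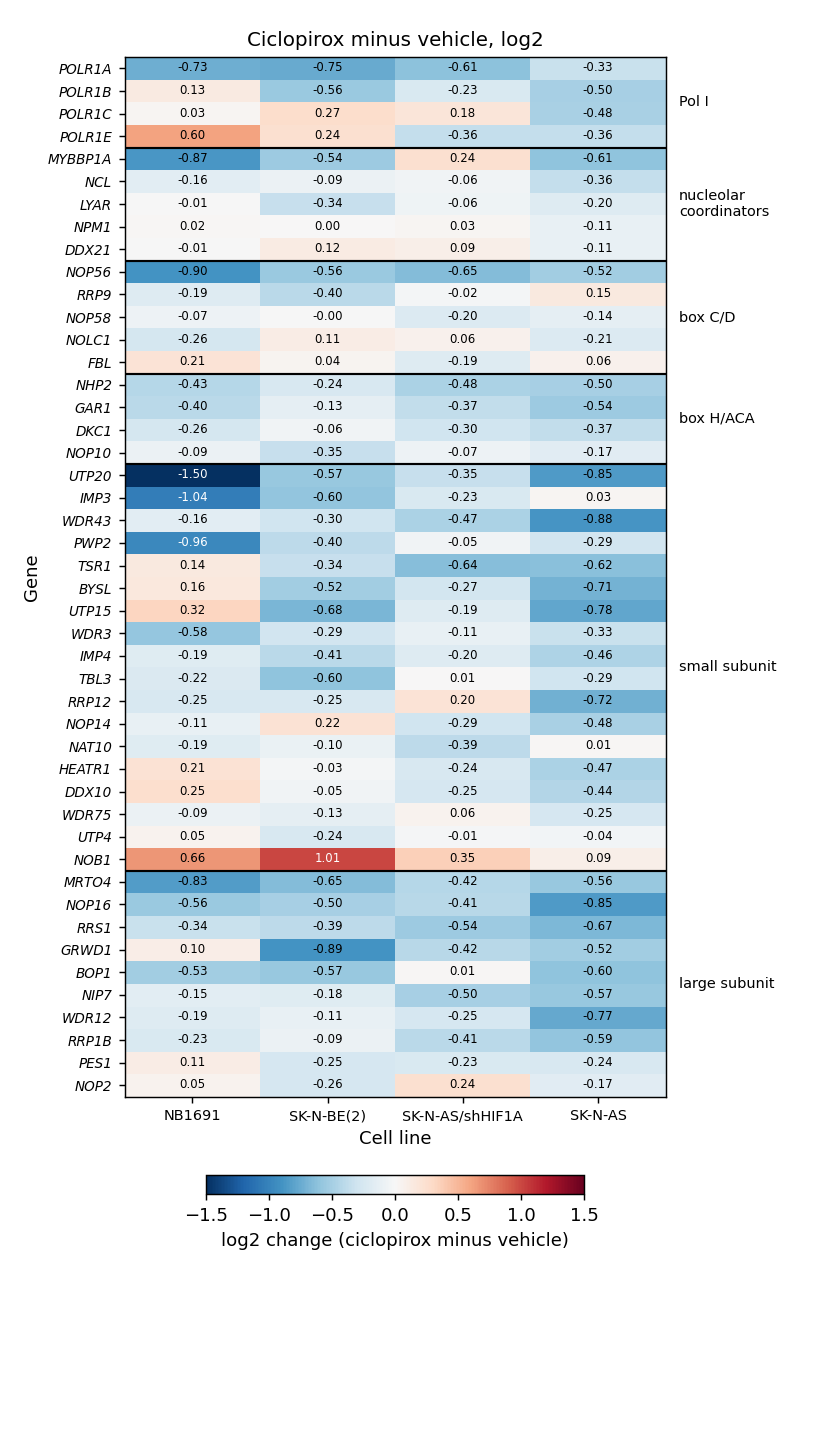
Ciclopirox minus vehicle change on the log2 scale for each of the 46 genes (rows, by stage and then by mean change) in each line (columns), with the value printed in each cell. Blue cells are lower under ciclopirox and prevail in all 4 columns, and NOB1 is the only row that is red throughout.

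Pol I transcribes the rRNA genes, and 1 of its 4 listed subunit genes, POLR1A, was lower in all lines (16% of all genes). POLR1A had log2 levels under ciclopirox of 5.19 for NB1691, 5.45 for SK-N-BE(2), 5.90 for SK-N-AS/shHIF1A and 5.87 for SK-N-AS, against 5.92 for NB1691, 6.20 for SK-N-BE(2), 6.51 for SK-N-AS/shHIF1A and 6.20 for SK-N-AS under vehicle. The largest catalytic subunit gene thus lay at or below 5.90 in every ciclopirox array and at or above 5.92 in every vehicle array, and the groups did not overlap. Its mean change was -0.61 ± 0.13 (SE, n = 4 lines, unadjusted p = 0.00321 and adjusted p = 0.153 in limma), which is 1.52-fold lower. POLR1B, the gene of the other large subunit, had changes of 0.13 for NB1691, -0.56 for SK-N-BE(2), -0.23 for SK-N-AS/shHIF1A and -0.50 for SK-N-AS, lower in 3 lines on this probe set and with overlapping groups (mean -0.29 ± 0.16). The other POLR1B probe sets at the filter gave -0.41, -0.78 and -0.69 for NB1691 and -0.09, 0.35 and -0.05 for SK-N-BE(2). They gave 0.07, 0.22 and -0.11 for SK-N-AS/shHIF1A and were below 0 in SK-N-AS. POLR1C, whose product is shared with Pol III, had changes of 0.03 for NB1691, 0.27 for SK-N-BE(2), 0.18 for SK-N-AS/shHIF1A and -0.48 for SK-N-AS, and was lower in SK-N-AS alone. The other POLR1C probe set at the filter gave -0.30 for NB1691 and the same signs in the other lines. POLR1E, an accessory subunit gene, had changes of 0.60 for NB1691, 0.24 for SK-N-BE(2), -0.36 for SK-N-AS/shHIF1A and -0.36 for SK-N-AS, so on this probe set it was higher in NB1691 and SK-N-BE(2) and lower in both SK-N-AS-derived lines. Neither of the last 2 had a mean change beyond its error (0.00 ± 0.16 and 0.03 ± 0.20).

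Among the nucleolar coordinators NPM1 and DDX21 had mean changes near 0. NPM1 (nucleophosmin), a histone and ribosome chaperone, had changes of 0.02 for NB1691, 0.00 for SK-N-BE(2), 0.03 for SK-N-AS/shHIF1A and -0.11 for SK-N-AS, and its 8 values all lay between 12.89 and 13.17. NCL (nucleolin), which binds nascent rRNA, was lower in all 4 lines by small amounts, with changes of -0.16 for NB1691, -0.09 for SK-N-BE(2), -0.06 for SK-N-AS/shHIF1A and -0.36 for SK-N-AS (mean -0.16 ± 0.12, unadjusted p = 0.216 in limma). Its groups overlapped. The helicase gene DDX21 had a mean change of 0.02 ± 0.11 and LYAR one of -0.15 ± 0.12. MYBBP1A, which binds Myb and Pol I proteins, was more variable, with changes of -0.87 for NB1691, -0.54 for SK-N-BE(2), 0.24 for SK-N-AS/shHIF1A and -0.61 for SK-N-AS and a mean of -0.44 ± 0.20. None of these 5 had an unadjusted p under 0.05 in limma, the smallest being 0.0699 for MYBBP1A. Of all genes 10.2% were lower and 7.67% higher at that threshold, so with 5 genes this count is near those shares.

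Box C/D particles hold NOP56, NOP58 and the methyltransferase fibrillarin (FBL) around a guide RNA, and of the genes of these partners NOP56 alone had an unadjusted p under 0.05 in limma. The difference between partners was not tested. NOP56 had log2 levels under ciclopirox of 10.34 for NB1691, 10.11 for SK-N-BE(2), 10.30 for SK-N-AS/shHIF1A and 10.39 for SK-N-AS, against 11.24 for NB1691, 10.66 for SK-N-BE(2), 10.94 for SK-N-AS/shHIF1A and 10.91 for SK-N-AS under vehicle. All 4 ciclopirox arrays lay below all 4 vehicle arrays. The mean change of NOP56 was -0.66 ± 0.12 (SE, n = 4 lines, unadjusted p = 0.00182 and adjusted p = 0.149 in limma), 1.58-fold lower, and its other probe set at the filter gave -0.63. NOP58 had log2 levels under ciclopirox of 10.92 for NB1691, 11.31 for SK-N-BE(2), 11.02 for SK-N-AS/shHIF1A and 10.98 for SK-N-AS, against 10.99 for NB1691, 11.31 for SK-N-BE(2), 11.22 for SK-N-AS/shHIF1A and 11.12 for SK-N-AS under vehicle. The 2 groups of NOP58 overlapped, and its mean change was -0.10 ± 0.11 (unadjusted p = 0.391 in limma). FBL had changes of 0.21 for NB1691, 0.04 for SK-N-BE(2), -0.19 for SK-N-AS/shHIF1A and 0.06 for SK-N-AS, with a mean of 0.03 ± 0.12. RRP9, a protein gene of the U3 particle, had levels between 4.59 and 6.05 and changes from -0.40 in SK-N-BE(2) to 0.15 in SK-N-AS. NOLC1, a chaperone of these particles, had a mean change of -0.07 ± 0.13. NOP56 and POLR1A were the members whose groups did not overlap, 2 of 46 (4.35%), against 1.47% of all genes with ciclopirox below vehicle, and 0 members lay wholly above, against 1.06%.

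Box H/ACA particles place pseudouridines, and the genes of all 4 core proteins were lower in all 4 lines (16% of all genes), although by unequal amounts. NHP2 had log2 levels under ciclopirox of 11.56 for NB1691, 12.05 for SK-N-BE(2), 11.62 for SK-N-AS/shHIF1A and 11.57 for SK-N-AS, against 11.996 for NB1691, 12.28 for SK-N-BE(2), 12.10 for SK-N-AS/shHIF1A and 12.07 for SK-N-AS under vehicle. SK-N-BE(2) was the highest in both groups, and its ciclopirox value lay within the vehicle range, so the groups overlapped. The mean change of NHP2 was -0.41 ± 0.12 (SE, n = 4 lines, unadjusted p = 0.0123 and adjusted p = 0.188 in limma). GAR1 had changes of -0.40 for NB1691, -0.13 for SK-N-BE(2), -0.37 for SK-N-AS/shHIF1A and -0.54 for SK-N-AS, a mean of -0.36 ± 0.12 with unadjusted p = 0.0272 in limma. DKC1 (dyskerin), the pseudouridine synthase gene, had changes of -0.26 for NB1691, -0.06 for SK-N-BE(2), -0.30 for SK-N-AS/shHIF1A and -0.37 for SK-N-AS (mean -0.25 ± 0.12, unadjusted p = 0.0826 in limma). NOP10, the gene of the smallest core protein, had a mean change of -0.17 ± 0.12. SK-N-BE(2) had the smallest change for NHP2, GAR1 and DKC1 and the largest for NOP10.

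**Figure D3:**
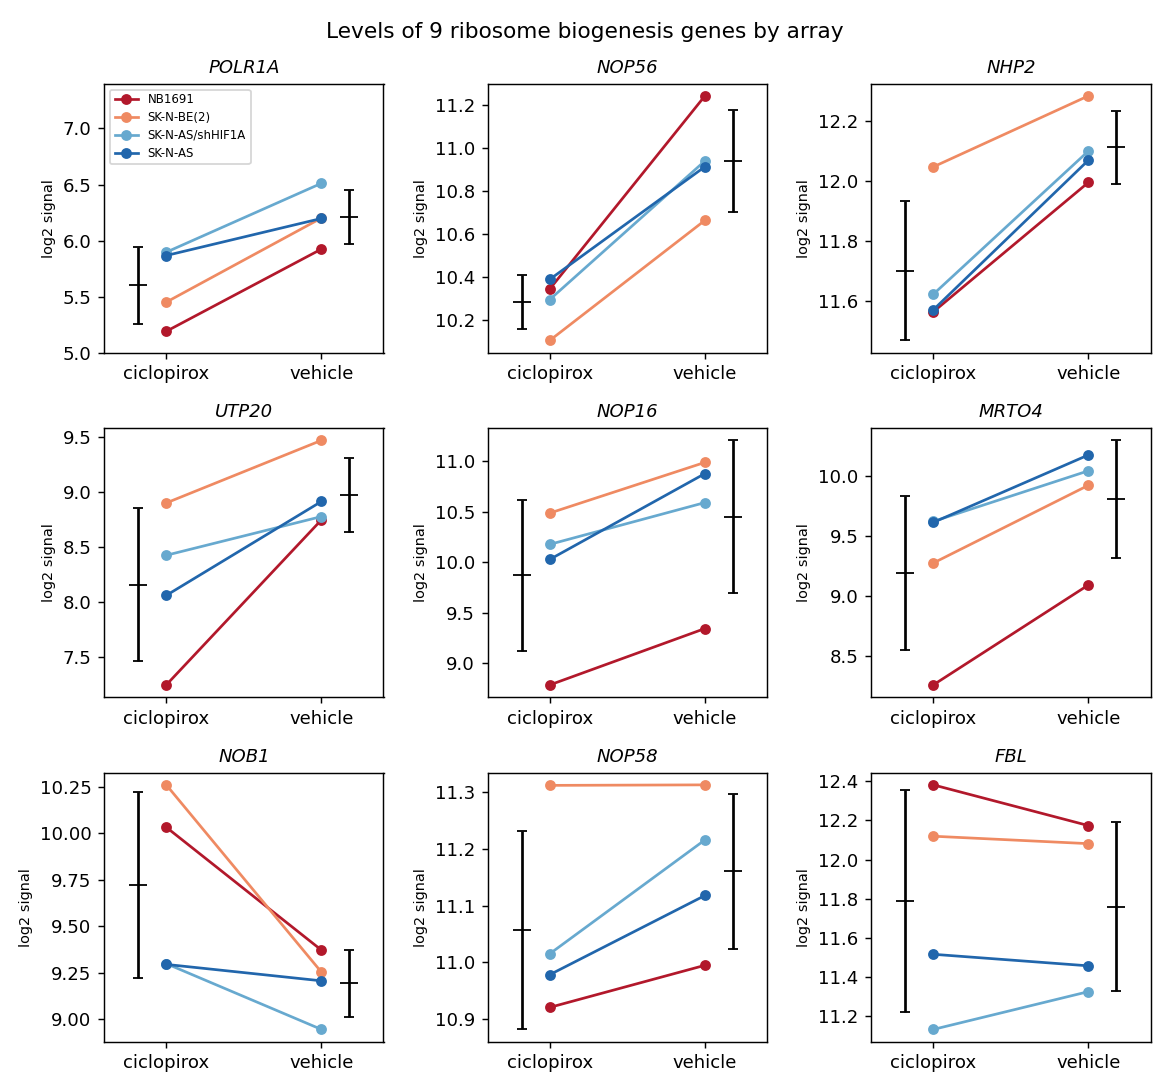
Log2 signal of 9 genes under ciclopirox (left of each panel) and vehicle (right), with 1 line of dots per cell line and the mean with its SD over 4 lines beside the dots in black, each panel on its own axis. POLR1A and NOP56 separate the groups, NOP58 and FBL differ little, and NOB1 slopes the other way, with ciclopirox above vehicle in every line.

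Small subunit factors form the processome that assembles on the nascent precursor. Of 18, the mean change was below 0 for 17 (52.2% of all genes), 5 were lower in all lines (16% of all genes), and 4 were lower at an unadjusted p under 0.05 in limma (10.2% of all genes). UTP20 had log2 levels under ciclopirox of 7.25 for NB1691, 8.90 for SK-N-BE(2), 8.42 for SK-N-AS/shHIF1A and 8.06 for SK-N-AS, against 8.74 for NB1691, 9.47 for SK-N-BE(2), 8.77 for SK-N-AS/shHIF1A and 8.91 for SK-N-AS under vehicle. Each line was lower under ciclopirox, and the value of NB1691 (-1.5) was the largest change of any member in any line. The mean change of UTP20, the gene of a long scaffold protein, was -0.82 ± 0.21 (SE, n = 4 lines, unadjusted p = 0.00757 and adjusted p = 0.174 in limma). The UTP-A complex, which links the processome to transcription, had a median of -0.13 over 5 genes. WDR43 was lower in all 4 lines, with changes of -0.16 for NB1691, -0.30 for SK-N-BE(2), -0.47 for SK-N-AS/shHIF1A and -0.88 for SK-N-AS, while UTP4 had a mean of -0.06 ± 0.12, WDR75 -0.10 ± 0.12 and HEATR1 -0.13 ± 0.15. UTP15 was lower in 3 lines and had 0.32 in NB1691 (mean -0.33 ± 0.21). Its other probe set at the filter gave -0.84 in NB1691 and a mean change of -0.75.

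The UTP-B genes WDR3 and PWP2 were lower in all 4 lines, with means of -0.33 ± 0.13 (unadjusted p = 0.0437 in limma) and -0.43 ± 0.17 (unadjusted p = 0.0508), and TBL3 was lower in 3. In NB1691 PWP2 had -0.96 and IMP3, a member of the MPP10 complex, had -1.04, whereas in SK-N-AS they had -0.29 and 0.03. Its partner gene IMP4 had changes of -0.19 for NB1691, -0.41 for SK-N-BE(2), -0.20 for SK-N-AS/shHIF1A and -0.46 for SK-N-AS (mean -0.31 ± 0.12, unadjusted p = 0.039 in limma). The helicase gene DDX10, NOP14 and the rRNA acetyltransferase gene NAT10 had means of -0.12 ± 0.15, -0.17 ± 0.15 and -0.16 ± 0.12.

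Late factors of the small subunit held the member with the highest mean change. NOB1 had log2 levels under ciclopirox of 10.03 for NB1691, 10.26 for SK-N-BE(2), 9.30 for SK-N-AS/shHIF1A and 9.30 for SK-N-AS, against 9.37 for NB1691, 9.25 for SK-N-BE(2), 8.95 for SK-N-AS/shHIF1A and 9.21 for SK-N-AS under vehicle. NOB1, the endonuclease gene for the last cut of the small subunit RNA, was higher under ciclopirox in every line, but the change in SK-N-AS was 0.09 and the groups overlapped. Its mean change was 0.53 ± 0.18 (SE, n = 4 lines, unadjusted p = 0.0248 and adjusted p = 0.226 in limma), 1.44-fold higher, and NOB1 was the only member above vehicle in all 4 lines. BYSL, TSR1 and RRP12, which act with the late precursor, had means of -0.33 ± 0.17, -0.36 ± 0.17 and -0.25 ± 0.17. BYSL and TSR1 were lower in all lines other than NB1691, and RRP12 was lower in all lines other than SK-N-AS/shHIF1A. NOB1 had 1 probe set, while 1 of 4 for TSR1 had a mean change of opposite sign.

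Large subunit factors had the lowest median of the 6 stages, -0.39, with all 10 below 0 on average (52.2% of all genes), 6 lower in all lines (16% of all genes) and 6 lower at an unadjusted p under 0.05 in limma (10.2% of all genes). MRTO4 had log2 levels under ciclopirox of 8.26 for NB1691, 9.27 for SK-N-BE(2), 9.62 for SK-N-AS/shHIF1A and 9.61 for SK-N-AS, against 9.09 for NB1691, 9.92 for SK-N-BE(2), 10.04 for SK-N-AS/shHIF1A and 10.18 for SK-N-AS under vehicle. MRTO4, a homologue of the ribosomal stalk protein that acts in large subunit assembly, was lower in every line, while NB1691 stood below the other lines in both groups and the groups overlapped. Its mean change was -0.62 ± 0.12 (SE, n = 4 lines, unadjusted p = 0.00254 and adjusted p = 0.153 in limma). NOP16 had log2 levels under ciclopirox of 8.78 for NB1691, 10.49 for SK-N-BE(2), 10.18 for SK-N-AS/shHIF1A and 10.03 for SK-N-AS, against 9.34 for NB1691, 10.99 for SK-N-BE(2), 10.59 for SK-N-AS/shHIF1A and 10.88 for SK-N-AS under vehicle. NB1691 stood below the other lines in both groups, and each line was lower under ciclopirox. The mean change of NOP16 was -0.58 ± 0.13 (SE, n = 4 lines, unadjusted p = 0.00381 and adjusted p = 0.153 in limma), and of its 3 other probe sets 1 gave -0.49, while those with mean levels of 4.72 and 3.85 gave 0.01 and 0.06. RRS1, which acts in incorporation of the small rRNA of that subunit, had changes of -0.34 for NB1691, -0.39 for SK-N-BE(2), -0.54 for SK-N-AS/shHIF1A and -0.67 for SK-N-AS (mean -0.49 ± 0.12, unadjusted p = 0.00687 in limma).

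The PeBoW complex of PES1, BOP1 and WDR12 is needed to process large subunit rRNA. BOP1 had changes of -0.53 for NB1691, -0.57 for SK-N-BE(2), 0.01 for SK-N-AS/shHIF1A and -0.60 for SK-N-AS, near 0 in the knockdown line and about equal in the others (mean -0.42 ± 0.15, unadjusted p = 0.0307 in limma). WDR12 was lower in all 4 lines, most in SK-N-AS (-0.77), and PES1 was lower in 3 and had 0.11 in NB1691. NIP7 and RRP1B had means of -0.35 ± 0.13 and -0.33 ± 0.13, each lower in all lines, with NB1691 and SK-N-BE(2) at -0.15 and -0.18 for NIP7 and -0.23 and -0.09 for RRP1B, against -0.50 and -0.57 for NIP7 and -0.41 and -0.59 for RRP1B in the SK-N-AS-derived lines. GRWD1, a chaperone gene for a ribosomal protein, had changes from -0.89 in SK-N-BE(2) to 0.10 in NB1691, and the rRNA methyltransferase gene NOP2 had a mean of -0.03 ± 0.13.

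Each line has 1 array per treatment, so its own changes are described without a test. The median change of the members was -0.16 for NB1691, -0.25 for SK-N-BE(2), -0.23 for SK-N-AS/shHIF1A and -0.45 for SK-N-AS. Members at least 1.5-fold lower numbered 7 for NB1691 (against 13.9% of all genes), 6 for SK-N-BE(2) (6.22%), 3 for SK-N-AS/shHIF1A (12.5%) and 12 for SK-N-AS (7.83%). Members at least 1.5-fold higher were NOB1 and POLR1E, thus 2, for NB1691 (10.3% of all genes), NOB1 alone for SK-N-BE(2) (7.71%), 0 for SK-N-AS/shHIF1A (11.3%) and 0 for SK-N-AS (8.31%). Members with a change below 0 numbered 31 for NB1691 (52.1% of all genes), 38 for SK-N-BE(2) (51.1%), 35 for SK-N-AS/shHIF1A (52.8%) and 41 for SK-N-AS (52.8%). In SK-N-AS the lowest changes were those of WDR43 (-0.88), UTP20 (-0.85) and NOP16 (-0.85). SK-N-AS/shHIF1A had NOP56 (-0.65), TSR1 (-0.64) and POLR1A (-0.61) at its low end, SK-N-BE(2) had GRWD1 (-0.89), POLR1A (-0.75) and UTP15 (-0.68), and NB1691 had UTP20 (-1.5), IMP3 (-1.04) and PWP2 (-0.96).

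The values of the mitosis genes and of MYC and MYCN are given beside these changes. The median changes of 20 mitosis genes were 0.12 for NB1691, -0.77 for SK-N-BE(2), -0.80 for SK-N-AS/shHIF1A and 0.17 for SK-N-AS. MYC had changes of 0.58 for NB1691, 0.62 for SK-N-BE(2), -0.63 for SK-N-AS/shHIF1A and -1.06 for SK-N-AS, at levels of 2.66 to 3.28 in NB1691 and SK-N-BE(2). MYCN had changes of -0.29 for NB1691, 0.05 for SK-N-BE(2), 0.24 for SK-N-AS/shHIF1A and 0.59 for SK-N-AS, where its levels were near the level filter. SK-N-AS, with the lowest median of the members, had a mitosis median above 0 and the lowest MYC change. NB1691, with the highest median of the members (-0.16), also had a mitosis median above 0. Its MYC change of 0.58 was at levels near the level filter, and the change of MYCN, which was high in that line, was -0.29. The part of these genes in the members' changes was not tested.

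The difference in change between NB1691 with SK-N-BE(2) and the SK-N-AS-derived lines was tested over the 4 changes. At an adjusted p under 0.05, 0 of 46 members differed in limma (0% of all genes higher and 0.0344% lower), and at an unadjusted p under 0.05 there was 1 each way, POLR1E with a higher change and IMP3 with a lower one (4.97% and 6.35% of all genes). For POLR1E the mean change was 0.42 in NB1691 and SK-N-BE(2), against -0.36 in the SK-N-AS-derived lines, a difference of 0.78 ± 0.25 (SE, 2 lines each, adjusted p = 0.366 in limma). It was the only member lower in both SK-N-AS-derived lines and higher in both others, a pattern that 6.53% of all genes showed, and 0 members had the opposite pattern (6.36% of all genes). The other POLR1E probe sets at the filter did not show this pattern. In 1 of them SK-N-BE(2) had -0.05, and in the other NB1691 had -0.07. For IMP3 the mean change was -0.82 in NB1691 and SK-N-BE(2), against -0.10 in the SK-N-AS-derived lines, a difference of -0.71 ± 0.27 (SE, 2 lines each, adjusted p = 0.429 in limma).

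**Figure D4:**
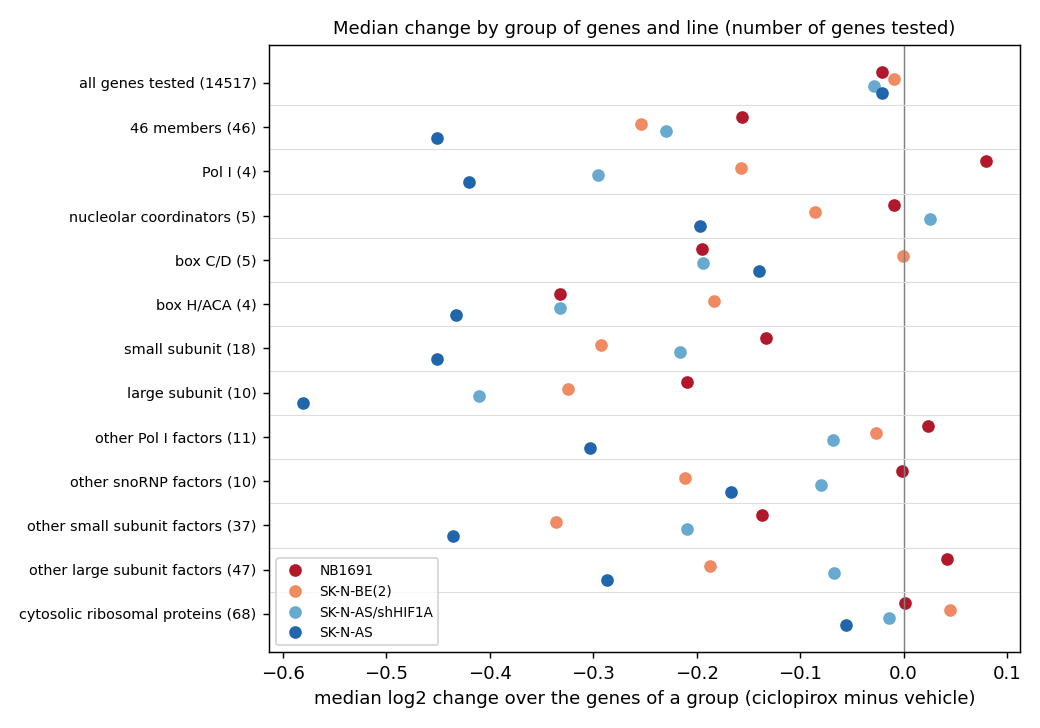
Median ciclopirox minus vehicle change on the log2 scale over the genes of each group, with 1 dot per cell line and the number of genes tested in brackets. All dots of box H/ACA, small subunit and large subunit genes lie below 0, those of cytosolic ribosomal proteins, nearly all with signals of 12 or above, lie near 0, and SK-N-AS is the lowest dot for box H/ACA, small subunit and large subunit genes.

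Genes of the same pathway outside the 46, from lists written with earlier results of these data known, were mostly lower as well. The mean change was below 0 for 33 of 37 other small subunit and 32 of 47 other large subunit factors (52.2% of all genes). It was below 0 for 6 of 10 other factors of small nucleolar ribonucleoproteins and 7 of 11 other Pol I factors, nearer that share. Of 37 other small subunit factors 12 were lower and 0 higher at an unadjusted p under 0.05 in limma (10.2% and 7.67% of all genes). Their median was -0.23, and 15 were lower in all lines (16% of all genes). RRP7A had a mean change of -0.72 ± 0.13 and WDR46 one of -0.53 ± 0.12. Of 47 other large subunit factors 10 were lower and 0 higher, with a median of -0.17, among them TMA16 at -0.71 ± 0.14 and URB2 at -0.43 ± 0.11. Of 10 other factors of small nucleolar ribonucleoproteins 2 were lower and 0 higher. RUVBL1, an ATPase that helps to build those particles and other complexes, had changes of -1.05 for NB1691, -0.66 for SK-N-BE(2), -1.07 for SK-N-AS/shHIF1A and -0.92 for SK-N-AS and a mean of -0.93 ± 0.13 (adjusted p = 0.121 in limma), and SHQ1, a dyskerin chaperone gene, had -0.40 ± 0.15.

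Of 11 other Pol I factors 3 were lower and 1 higher at that threshold in limma (10.2% and 7.67% of all genes). UBTF, which binds rRNA gene promoters, had changes of -0.83 for NB1691, -0.03 for SK-N-BE(2), -0.52 for SK-N-AS/shHIF1A and -0.67 for SK-N-AS, TAF1B, a promoter selectivity factor gene, had -0.36 for NB1691, -0.22 for SK-N-BE(2), -0.54 for SK-N-AS/shHIF1A and -0.66 for SK-N-AS. POLR1D, a subunit gene shared with Pol III, was higher in all 4 lines, with 0.46 for NB1691, 0.70 for SK-N-BE(2), 0.29 for SK-N-AS/shHIF1A and 0.23 for SK-N-AS. Of 68 cytosolic ribosomal protein genes 1 was lower (RPL23, -0.72 ± 0.16) and 0 were higher at that threshold (10.2% and 7.67% of all genes). Their median change was 0.00. Of these genes 66 had signals of 12.03 to 13.85 on all arrays, near the top of the scale, and whether a change can be read at that level was not tested. The level of 12 that divides them was chosen after the values were seen. The other 2 were RPL23, with signals of 5.78 to 7.49, and RPL31, with signals of 8.48 to 10.28. Whether the probe sets of these 2 genes read their main transcripts was not tested. RPL31 had changes of 0.12 for NB1691, -0.40 for SK-N-BE(2), -0.84 for SK-N-AS/shHIF1A and -0.53 for SK-N-AS and a mean of -0.41 ± 0.18. Among the 46 factors NCL and NPM1 were likewise at 12 or above on all arrays. The difference between the 46 factors and the ribosomal proteins was not tested.

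Levels of the factors also differed between lines, and NB1691 was often the lowest. Under ciclopirox it had the lowest level of the 4 lines for 23 of 46 members, against 29.4% of all genes, and under vehicle for 30 (65.2%, against 30.3%). SK-N-BE(2) had the highest level for 21 members under ciclopirox (45.7%, against 28.6%) and for 21 under vehicle (45.7%, against 29.2%). In limma, with treatment in the fit and an adjusted p under 0.05, 12 members were lower in NB1691 than in SK-N-BE(2) (26.1%, against 12.2% of all genes) and 1 was higher, WDR43 (2.17%, against 12.9%). The median difference was -0.41, against -0.02 over all genes. The error here is between the 2 arrays of a line, which received different treatments.

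The largest of these differences were in genes of both subunits. IMP3 had 7.01 and 8.05 in NB1691 under ciclopirox and vehicle, against 9.19 and 9.78 in SK-N-BE(2), which gives -1.95 ± 0.28 (SE, adjusted p = 0.00545 in limma). NOP16 differed by -1.68 ± 0.18, RRS1 by -1.25 ± 0.17, PWP2 by -1.22 ± 0.25 and UTP20 by -1.19 ± 0.29. Of the 10 large subunit genes 6 were lower in NB1691 in limma (12.2% of all genes). Of the 4 Pol I genes 0 differed (12.2% of all genes lower and 12.9% higher), which with 4 genes is near those shares. A difference between stages was not tested. WDR43 ran the other way, with 10.61 and 10.77 in NB1691 against 8.73 and 9.03 in SK-N-BE(2), which gives 1.81 ± 0.22 (adjusted p = 0.00316 in limma).

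**Figure D5:**
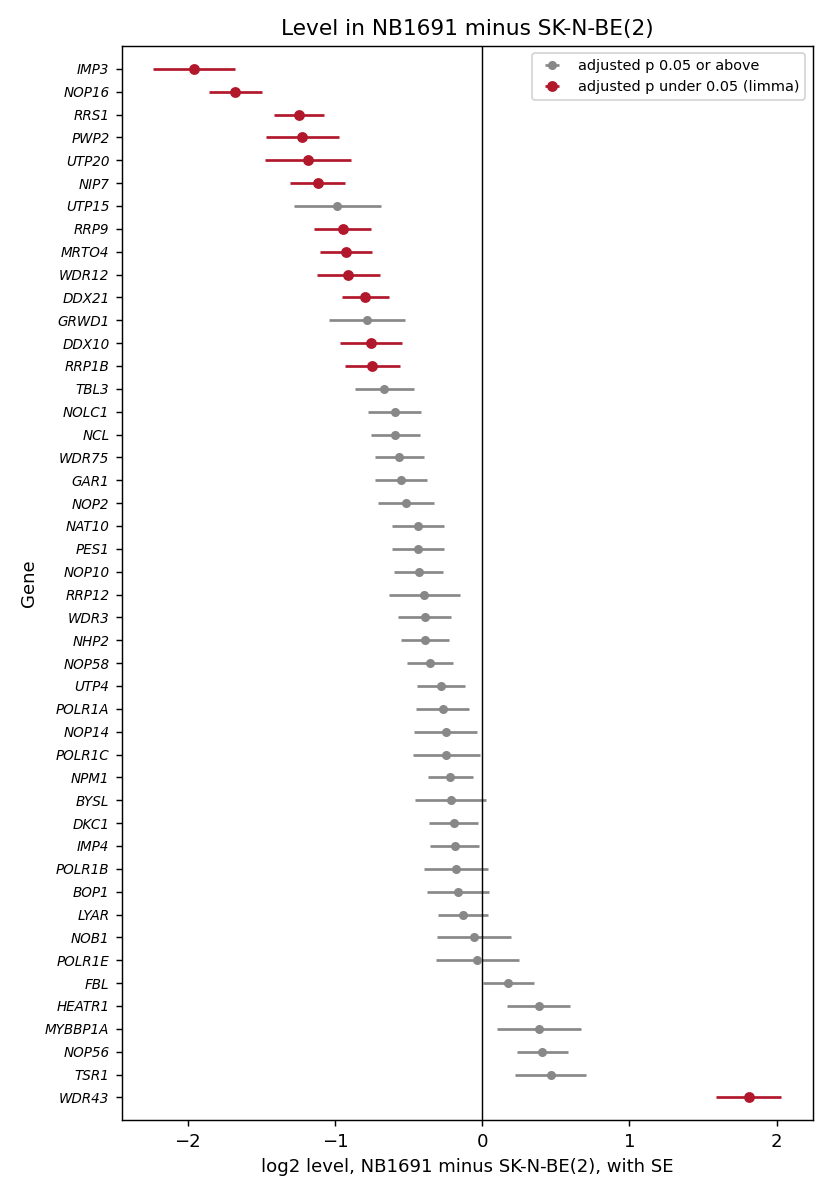
Difference in log2 level between NB1691 and SK-N-BE(2) for the 46 genes, ordered by size, with SE from limma over all 8 arrays. Red points have an adjusted p under 0.05 over all genes. Of the 13 red points, 12 lie left of 0 and 1, WDR43, lies right of it.

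Relative to the SK-N-AS-derived lines, NB1691 and SK-N-BE(2) together were higher in 10 members and lower in 14 at an adjusted p under 0.05 in limma (21.7% and 30.4%, against 23% and 22.8% of all genes). This count rests on the spread between arrays of these 4 lines, and with the mean of each line as the unit, 2 against 2, 0 members passed. The share of all genes that passed with line as the unit is not given here, so that 0 is not read as a result about the members. The 5 largest differences each way are given. Higher were WDR43 by 1.98 ± 0.16, DDX10 by 1.42 ± 0.15, FBL by 0.83 ± 0.12, TBL3 by 0.76 ± 0.14 and RRP9 by 0.61 ± 0.14 (SE, adjusted p 0.000272 to 0.0139). FBL had 12.38 in NB1691 and 12.12 in SK-N-BE(2) under ciclopirox, against 11.13 for SK-N-AS/shHIF1A and 11.52 for SK-N-AS, and its vehicle levels were ordered in the same way by origin. Lower were GAR1 with -1.29 ± 0.12, PWP2 with -1.03 ± 0.17, POLR1B with -1.03 ± 0.16, RRP12 with -0.92 ± 0.17 and NIP7 with -0.73 ± 0.13 (SE, adjusted p 0.000574 to 0.00693). GAR1 had 9.09 in NB1691 and 9.78 in SK-N-BE(2) under ciclopirox, against 10.66 and 10.59 in SK-N-AS/shHIF1A and SK-N-AS, so all arrays of NB1691 and SK-N-BE(2) lay below all arrays of the SK-N-AS-derived lines at either treatment.

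The HIF1A knockdown line was also set against its parent. At an adjusted p under 0.05 in limma, 0 of 46 members differed (0.744% of all genes higher and 0.84% lower), and at an unadjusted p under 0.05 there were 2 higher and 0 lower (5.98% and 6.08% of all genes). These were RRP12, with 8.19 and 7.98 in SK-N-AS/shHIF1A under ciclopirox and vehicle, against 7.10 and 7.81 in SK-N-AS (difference 0.63 ± 0.24, adjusted p = 0.376 in limma), and TBL3 (difference 0.53 ± 0.20, adjusted p = 0.359). The median difference over the members was 0.00.

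Agreement between probe sets was checked where a gene had several at the filter, as 22 members did. For 6 of them, POLR1E, DDX21, PWP2, TSR1, NOP16 and PES1, at least 1 probe set had a mean change of opposite sign. Only mean changes were compared in this check. Within NB1691 probe sets of POLR1B, POLR1C and UTP15, among others, also differed in sign. Of the 46 probe sets used, 17 carry the suffix that marks probes shared between transcripts of a gene or gene family, including those of NOP56, NHP2, NOP16 and MRTO4, and cross-hybridisation was not tested.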

How the data were processed

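The authors deposited RMA expression values on the log2 scale for 54715 probe sets on 8 arrays, with RMA named per the submitters' processing notes and its version not given in the sources used here. RMA corrects background and quantile normalizes arrays, so a shift shared by all genes cannot be seen. Arrays give no depth, and their number limits the precision.

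Of the probe sets, 40914 carried exactly 1 symbol in GEO's platform annotation, 864 several and 12835 none, and 102 controls were left out. Each gene was read from its brightest probe set over all arrays. Genes with a mean at or above the 40th percentile (log2 3.21), 14517 of 19774, were tested in R 4.3.3 with limma 3.58.1 (lmFit and eBayes), with Benjamini-Hochberg adjustment over all of them at 0.05, two-sided. Cell line was a block, since both arrays of a line share that line (correlation of their deviations across genes 0.817 to 0.898), which left 3 residual degrees of freedom. The same fit gave the comparisons between lines, and the difference in change was fitted on the 4 within-line changes. With 4 lines, an exact sign-flip test cannot go below p = 0.125. No label names separate cultures, and p-values therefore measure the spread between these samples, which may be technical.

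On data simulated from these arrays, limma recovered 48% of genes changed 2-fold and 94% of those changed 4-fold between ciclopirox and vehicle, of 14517 genes. At 2-fold and 4-fold it recovered 2% and 12% for the difference in change. It recovered 6% and 80% for the knockdown line against its parent and 6% and 84% for NB1691 against SK-N-BE(2). For NB1691 and SK-N-BE(2) against the SK-N-AS-derived lines it recovered 52% and 98%. The counts of 0 members for the difference in change and the knockdown do not exclude 2-fold differences. For the difference in change the count of 0 does not exclude 4-fold differences either, since 12% of them were recovered. Members and lists were chosen with earlier results of these data known. All members could be named, with full statistics for those with 1 sign in all lines and unadjusted p under 0.05, the extremes of each stage and line, up to 5 members each way in comparisons between lines, and 11 fixed genes. Other lists gave up to 2 genes each way by unadjusted p. Motifs were searched in Python 3.11.15. Alternatives covered the block, lines left out, the filter, the probe set rule, scaling and limma's variance settings.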

Additional observations from a re-analysis of the deposited data

Results flagged for a closer look

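In 14 of 138 groups of 4 values, 1 line stood apart by Dixon's test, which by chance marks about 1 group in 20. Under ciclopirox, SK-N-BE(2) had the highest level of NCL (12.67, others 12.02 to 12.11), RRP9 (5.65, others 4.73 to 4.87), NHP2 (12.05, others 11.56 to 11.62) and UTP4 (11.26, others 11.10 to 11.13), and NB1691 had the lowest of IMP3 (7.01, others 8.83 to 9.19). Under vehicle, SK-N-BE(2) had the highest level of UTP4 (11.50, others 11.08 to 11.14) and RRP1B (11.40, others 10.60 to 10.72). NB1691 had the lowest vehicle level of NOP10 (11.29, others 11.83 to 11.87), UTP15 (6.02, others 7.45 to 7.54), WDR75 (9.44, others 10.01 to 10.09) and RRS1 (9.48, others 10.69 to 10.76).

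Among changes on the log2 scale, ciclopirox minus vehicle, that of NPM1 in SK-N-AS was -0.11, with 0.00 to 0.03 in the other lines. BOP1 had 0.014 in SK-N-AS/shHIF1A, with -0.60 to -0.53 in the other lines, and PES1 had 0.11 in NB1691, with -0.25 to -0.23 in the other lines.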

How the results depend on the processing

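The median change of the members stayed below 0 in every alternative run, and lay between -0.30 and -0.21 with each line left out. With lines left out, members lower at an unadjusted p under 0.05 in limma numbered 7 to 15 (7 without SK-N-AS), those higher 0 to 1, and those lower in all remaining lines 21 to 29. With no replicate block, so that lines were not paired, 3 members were lower and 0 higher. With the SK-N-AS-derived lines averaged into 1, 10 were lower, 8 of them among the 14. With array weights 21 were lower and 0 higher. The comparison of NB1691 and SK-N-BE(2) with the SK-N-AS-derived lines gave 24 members in the fit over arrays and 0 with line as the unit, which has fewer samples. At an adjusted p under 0.1, 20 members differed between NB1691 and SK-N-BE(2), against 13 at 0.05. Shares of all genes called under these alternatives are not given here. The counts alone therefore do not show a stronger or weaker result for the members. Mean changes near 0 turned sign, and the cause was not tested. Without SK-N-AS, POLR1C had 0.16, NPM1 0.0151 and NOP2 0.0125. Without NB1691, POLR1E had -0.16 and FBL -0.0321. Without SK-N-BE(2), POLR1E had -0.0392, DDX21 -0.0102 and NOP2 0.0394, and without SK-N-AS/shHIF1A DDX21 had -0.000993. With both SK-N-AS-derived lines averaged POLR1C had 0.0476, and after quantile normalization 0.00706. With probe sets of a gene averaged, POLR1E had -0.13 and DDX21 -0.00912, and with array weights POLR1E had -0.13 and DDX21 -0.00153.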
